A study of Mus with 7 samples.

Results

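A set of 10 genes of fatty acid uptake, binding and oxidation was followed in fetal liver-derived macrophages (FLMs), in cells given the omega-3 fatty acid docosahexaenoic acid (DHA) and then lipopolysaccharide (LPS). They are Cd36, Fabp4, Fabp5, Pdk4, Cpt1a, Angptl4, Acadvl, Acadl, Hadha and Hadhb, found by their symbols in the feature lists, which makes 10 of 31053 genes. Of these, 9 had a mean of at least 1 CPM (counts per 1000000 UMIs) over the 7 libraries, and Pdk4 had no count in any. The cells are a self-renewing culture from livers of wild-type C57BL/6J mouse fetuses, kept in murine GM-CSF at 30 ng/mL with penicillin-streptomycin in every group. Con cells stayed in 10% FBS and were harvested without treatment. Serum was cut to 0.25% FBS for the other 6 groups, which spent 24 h with DHA at 25 µM, bound to BSA at 8.3 µM (DHA), or with the same BSA and no DHA (Veh). They were harvested then (0 h), or after 1 or 4 h in 20 ng/mL LPS, a bacterial ligand of TLR4 that took the place of the DHA or BSA medium. No library had those hours without LPS. A difference after LPS below therefore joins LPS, the change of medium and the added time, which cannot be told apart. Each condition was 1 single-cell RNA library. No difference between a pair of conditions therefore has a replicate check, and none was tested. DHA against Veh over the 3 hours together could be tested, with hour as a term.

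Long-chain fatty acids reach the macrophage through surface proteins such as CD36 and are carried in the cytosol by fatty acid binding proteins. CPT1 links them to carnitine at the mitochondrial outer membrane, the step that admits them to the mitochondrion, where acyl-CoA dehydrogenases and the trifunctional protein of HADHA and HADHB shorten them by beta oxidation. Fatty acids are ligands of PPAR transcription factors, and Cpt1a, Angptl4, Pdk4 and Cd36 are among the well known PPAR target genes, a list that is not complete. Inflammatory stimulation of macrophages is known for a turn from fatty acid oxidation towards glycolysis.

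Cells were barcodes with over 20000 unique molecular identifiers (UMIs, 1 per captured RNA molecule), at least 2000 genes and under 20% mitochondrial UMIs. These limits left 692 to 3073 cells per library with median depths of 29369 to 56239 UMIs, and 22045775 to 125716982 UMIs in all. A mitochondrial share of at least 20% marked 29.0% of Con barcodes. It marked 37.8%, 35.8% and 54.7% of those from Veh (0, 1 and 4 h) and 76.4%, 74.4% and 80.0% of those from DHA. DHA thus came with a larger loss of barcodes at each hour, and the part of that loss in any value below cannot be told apart from DHA. Pairs of libraries shared 0 to 4 barcodes of kept cells. The 9 macrophage markers summed to 5817 to 7089 CPM, while 5 adipocyte markers summed to at most 0.0512 CPM, with Lep at 0, and 5 endothelial markers to 1.88 to 4.71 CPM. Markers of neutrophils summed to 0.0571 to 7.53 CPM (S100a9 and Ngp at 0), of hepatocytes to 5.48 to 7.71 CPM (Alb and Ttr at 0), and of erythroid and stromal cells to at most 0.285 and 0.0907 CPM. Afp, at 5.45 to 7.54 CPM, made up nearly all of the hepatocyte sum. Whether reads of the markers at 0 were lost in the assignment to genes was not tested. No other cell type was found by these markers in which free RNA could be measured, so a share of cells with a UMI has no background to be set against.

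A level is the UMIs of a gene summed over a library's cells, scaled by the UMIs of all genes to CPM. Ratios are ratios of such levels, with exact binomial 95% intervals in brackets that cover counting error only. A gene was counted as higher or lower where the ratio passed 1.5-fold, among the 10410 genes with a mean of at least 1 CPM. In DHA against Veh, 3 of 9 members were higher and 1 lower at 0 h, where 2.03% of all genes were higher and 1.99% lower. At 1 h, 4 members were higher and 2 lower (2.59% and 2.90% of all genes), and at 4 h 3 were higher and 1 lower (5.65% and 3.53%). In Veh, 1 member was higher and 1 lower after 1 h of LPS (5.24% and 7.89% of all genes). After 4 h, 3 were higher and 4 lower (10.1% and 42.2%). In DHA the counts were 1 higher and 1 lower at 1 h (5.85% and 8.21%) and 2 higher and 3 lower at 4 h (10.4% and 36.3%). Veh.LPS.0 against Con, a change of serum, BSA and time together, had 2 members higher and 1 lower (13.5% and 7.29%). The share of members past the limit, in either direction, was above that of all genes in each of the 8 comparisons. In some this rested on few genes, as with 2 of 9 members against 13.1% of all genes after 1 h of LPS in Veh. The members were chosen with earlier results of these data known, so the excess is no test of the set. The 4 members lower after 4 h of LPS in Veh, of 9, stood beside 42.2% of all genes. Comparisons share libraries: Veh.LPS.0, for example, enters 4 of the 8.

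Across the 3 hours together, Fabp4 and Fabp5 were lower and Acadvl was higher in DHA than in Veh in a fit with hour as a term (edgeR's quasi-likelihood test, Benjamini-Hochberg adjustment over 10410 genes, 6 libraries and 2 residual degrees of freedom). These 3 of 9 members had an adjusted p under 0.05, as had 2.41% of all genes (156 higher and 95 lower). The log2 differences were -1.10 for Fabp4 (adjusted p = 0.0322), -0.58 for Fabp5 (adjusted p = 0.0233) and 0.70 for Acadvl (adjusted p = 0.0317), each in the same direction at 3 of 3 hours. Cpt1a at 1.57 (adjusted p = 0.0576) and Cd36 at 0.77 (adjusted p = 0.0624) did not pass, nor did Acadl at 0.39 (adjusted p = 0.106), although each was higher in DHA at 3 of 3 hours. Angptl4 at 0.48, Hadha at 0.06 and Hadhb at 0.00 had adjusted p of 0.339, 0.533 and 0.999. The fit takes a DHA ratio that changes from hour to hour as error, and the hours are not replicate cultures. It was added after seeing the data, and on simulated counts its share of false calls was above 0.05. The calls were lost without the 0 h or the 1 h libraries, with 0 of 9 members past the threshold and 6 of 9 at an unadjusted p under 0.05 in either case, and 6 members passed without the 4 h libraries.

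**Figure D1:**
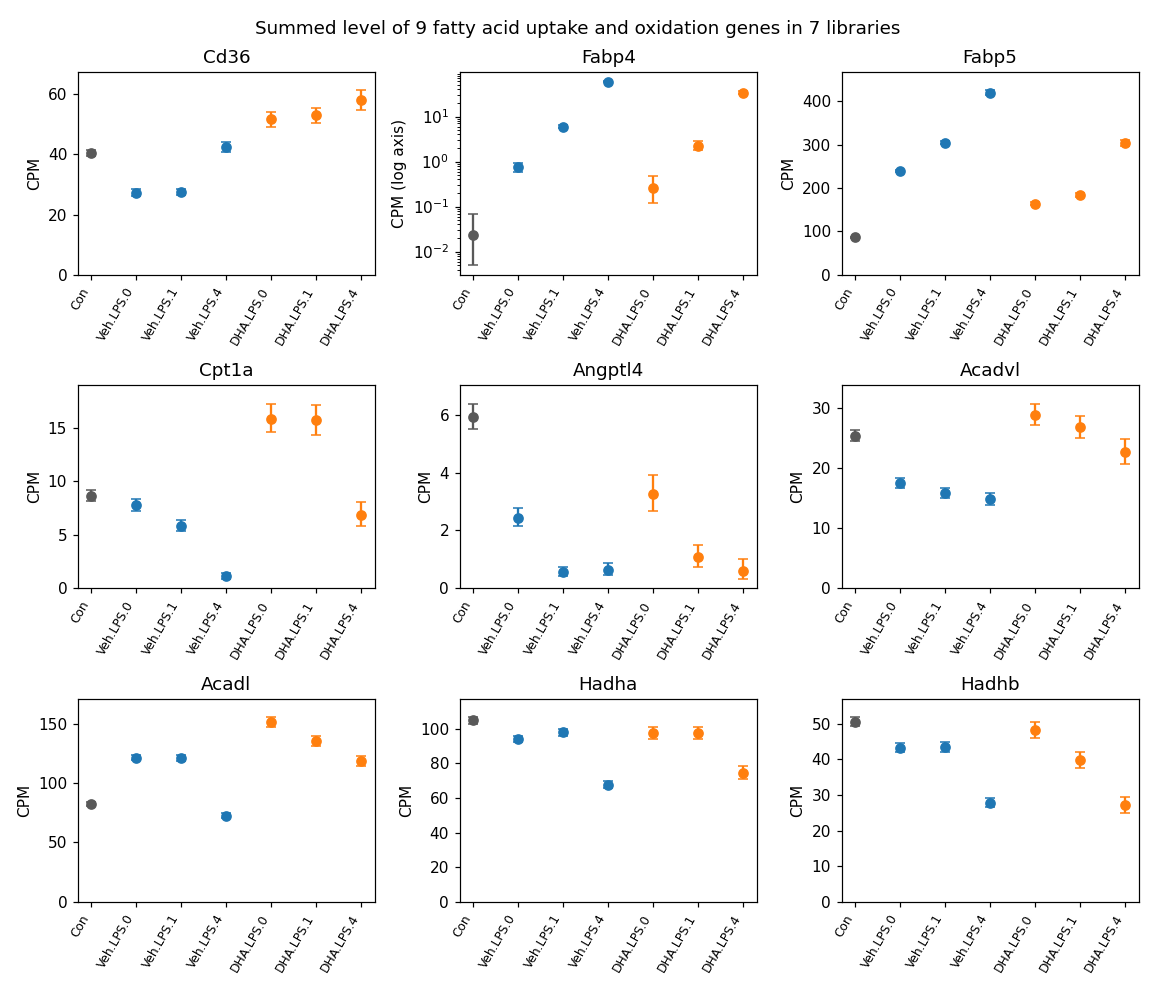
Level of the 9 detected genes in each library, in CPM with exact Poisson 95% intervals (counting error only); grey is Con, blue Veh and orange DHA, at 0, 1 and 4 h of LPS, and the Fabp4 axis alone is logarithmic. Cpt1a and Acadvl sit higher in DHA than in Veh at each hour, Fabp4 and Fabp5 lower, and Hadha and Hadhb differ little between them.

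Cd36 (ENSMUSG00000002944; chr5:17781690-17888959, GRCm38) encodes the scavenger receptor and fatty acid translocase of the macrophage surface. The Con library held 40.5 CPM. Veh cells held 27.3, 27.5 and 42.5 CPM after 0, 1 and 4 h of LPS, and DHA cells 51.6, 53.0 and 58.1 CPM. All 3 DHA libraries lay above all 4 others. DHA.LPS.1 and DHA.LPS.0, Veh.LPS.4 and Con, and Veh.LPS.1 and Veh.LPS.0 were neighbours in this order whose ratio could not be told from 1 by counting error. DHA over Veh was 1.89 (1.78 to 2.01) at 0 h, 1.93 (1.81 to 2.05) at 1 h and 1.37 (1.28 to 1.46) at 4 h. The ratio at 4 h was 0.722 times that at 0 h (0.660 to 0.790), and Cd36 in Veh was itself higher after 4 h of LPS by 1.56-fold (1.47 to 1.64). That change was 1.12-fold in DHA. The level of Cd36 in barcodes with at least 20% mitochondrial UMIs, scaled by non-mitochondrial UMIs, was 1.65 to 3.66 times that of the kept cells in the 7 libraries. Over all barcodes, scaled by non-mitochondrial UMIs, the log2 ratio of DHA to Veh at 4 h was 0.92, against 0.45 in kept cells, and it passed the limit. The change of Cd36 in Veh after 4 h of LPS was 0.64 on the log2 scale, where the limit is 0.585. It stayed under the limit over all barcodes, at 0.54, or 0.57 when scaled by non-mitochondrial UMIs. In cells of low proliferation it was 0.37, also under the limit. It was larger with equal weight per cell, at 0.73, and with TMM scaling, at 1.07.

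Fabp4 (ENSMUSG00000062515; chr3:10204342-10208616), the adipocyte and macrophage fatty acid binding protein also called aP2, had the widest range of the 10 genes. It had 3 UMIs in Con, or 0.0239 CPM. The Veh libraries had 0.739, 5.95 and 59.2 CPM at 0, 1 and 4 h, and the DHA libraries 0.257 (9 UMIs), 2.26 and 33.7 CPM. No neighbouring libraries in the order of Fabp4 levels had a ratio whose interval held 1. LPS over 0 h was 8.04 (6.29 to 10.4) at 1 h and 80.1 (63.5 to 102) at 4 h in Veh, and 8.81 (4.39 to 20.0) and 131 (68.6 to 288) in DHA. In cells of low proliferation the 4 h value in Veh was smaller, 5.43 on the log2 scale against 6.32, while a 10% mitochondrial limit gave 6.85. DHA over Veh was 0.348 (0.153 to 0.697) at 0 h, 0.381 (0.294 to 0.487) at 1 h and 0.569 (0.525 to 0.616) at 4 h. The 0 h ratio rested on few cells, as 1.09% of 2481 Veh cells and 0.573% of 698 DHA cells had a Fabp4 UMI. In cells of low proliferation the 4 h difference was -0.46 on the log2 scale, against -0.81 in all kept cells, and stayed under the limit. With cells thinned to equal depth, the top cell of DHA.LPS.4 held 111 of 433 Fabp4 UMIs, and that of Veh.LPS.4 held 88 of 1175. The 4 h ratios of Fabp4 were not recomputed without these cells, so their size can depend on them. Veh.LPS.0 over Con was 31.0 (10.2 to 154), with 73 and 3 UMIs. The adipocyte markers Adipoq, Plin1, Cidec, Lep and Cfd together stayed at or below 0.0512 CPM in every library.

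Fabp5 (ENSMUSG00000027533; chr3:10012585-10016610), the epidermal fatty acid binding protein and the main one of many macrophages, lies 187731 bases from Fabp4 on the same chromosome. The Con library held 86.3 CPM. Veh cells held 239, 305 and 420 CPM after 0, 1 and 4 h of LPS, and DHA cells 164, 183 and 304 CPM. Like Fabp4 it was lowest in Con, highest in Veh.LPS.4, and lower in DHA than in Veh at each hour. Its ratios of DHA to Veh were 0.686 (0.666 to 0.706), 0.601 (0.584 to 0.618) and 0.723 (0.703 to 0.743), so the 1 h value alone passed the limit. Over all barcodes, each of the 3 ratios passed it. Fabp5 in barcodes of high mitochondrial share was 0.502 to 0.831 times the level in kept cells, in each of the 7 libraries. Fabp5 at 4 h of LPS over 0 h was 1.76 in Veh (1.72 to 1.79) and 1.85 in DHA (1.79 to 1.92), and Veh.LPS.0 over Con was 2.77 (2.71 to 2.84).

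Angptl4 (ENSMUSG00000002289; chr17:33774900-33781575) encodes a secreted inhibitor of lipoprotein lipase, the enzyme that frees fatty acids from lipoproteins. The Con library held 5.94 CPM. Veh cells held 2.44, 0.571 and 0.631 CPM after 0, 1 and 4 h of LPS, and DHA cells 3.26, 1.07 and 0.590 CPM. Con was the highest library, and the 3 lowest, Veh.LPS.4, DHA.LPS.4 and Veh.LPS.1, could not be told apart in neighbouring pairs. In Veh the lower level was reached by 1 h of LPS, at 0.234 times 0 h (0.171 to 0.316), with 0.259 (0.178 to 0.367) at 4 h. In DHA the ratio was 0.328 (0.217 to 0.485) at 1 h and lower at 4 h, at 0.181 (0.0936 to 0.322). These DHA levels rested on 34 and 13 UMIs, and their intervals overlapped. The ratio of DHA to Veh was 1.33 (1.06 to 1.67) at 0 h and 1.87 (1.18 to 2.93) at 1 h, on 34 and 54 UMIs. At 4 h it was 0.934 (0.456 to 1.80), where 13 and 37 UMIs allow no direction. The 1 h value stayed under the limit in cells of low proliferation, at 0.31 on the log2 scale.

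Pdk4 (ENSMUSG00000019577; chr6:5483351-5496278), the kinase that turns pyruvate dehydrogenase off when fatty acids are burned, had 0 UMIs among 466508896 over the 11640 kept cells, and 0 in all 31151 deposited barcodes. A count of 0 allows a level of up to 0.00643 CPM over the 7 libraries together, or up to 0.0239 CPM in Con and 0.136 CPM in DHA.LPS.4. Pdk4 was not detectable at this depth in any condition, and no ratio can be given for it. Whether the step that assigned reads to genes lost those of Pdk4 was not tested, and these limits hold only if it did not.

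Cpt1a (ENSMUSG00000024900; chr19:3322326-3385735), the liver-type carnitine palmitoyltransferase of the outer mitochondrial membrane, had the highest ratio of DHA to Veh of the members at each hour. The Con library held 8.65 CPM. Veh cells held 7.77, 5.86 and 1.11 CPM after 0, 1 and 4 h of LPS, and DHA cells 15.9, 15.8 and 6.85 CPM. The DHA libraries at 0 and 1 h were the highest, and Veh.LPS.4, with 65 UMIs, was below all others. DHA over Veh was 2.05 (1.83 to 2.29) at 0 h, 2.69 (2.38 to 3.04) at 1 h and 6.17 (4.59 to 8.39) at 4 h. The ratio at 4 h was 3.02 times that at 0 h (2.21 to 4.11), on a normal interval of the log ratio that covers counting error only. Cpt1a at 4 h of LPS was 0.143 of its 0 h level in Veh (0.109 to 0.184) and 0.431 in DHA (0.357 to 0.516). After 4 h of LPS, DHA cells thus had 6.85 CPM, between the 7.77 CPM of Veh at 0 h and the 5.86 CPM of Veh at 1 h, and neither neighbouring ratio could be told from 1. Cpt1a in barcodes of high mitochondrial share was 1.30 to 2.15 times that in kept cells.

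Acadvl (ENSMUSG00000018574; chr11:70010183-70015428) encodes the very long-chain acyl-CoA dehydrogenase, the first oxidation step for the longest substrates. The Con library had 25.3 CPM. Veh gave 17.5, 15.8 and 14.9 CPM at the 3 hours, where DHA gave 28.8, 26.8 and 22.7 CPM. Each DHA library lay above every Veh library. DHA over Veh was 1.65 (1.52 to 1.78), 1.70 (1.56 to 1.85) and 1.52 (1.36 to 1.70) at 0, 1 and 4 h, close to the limit. On the log2 scale, where the limit is 0.585, it was just under it at 0 h in cells of low proliferation (0.57) and at 1 h over all barcodes (0.58, or 0.77 when scaled by non-mitochondrial UMIs). At 4 h it was under it with equal weight per cell (0.57), with TMM scaling (0.49) and over all barcodes (0.33, or 0.49 when scaled by non-mitochondrial UMIs).

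Acadl (ENSMUSG00000026003; chr1:66830839-66863309), the long-chain acyl-CoA dehydrogenase, was at 82.5 CPM for Con, at 122, 121 and 72.3 CPM for Veh and at 151, 135 and 119 CPM for DHA. Its ratio of DHA to Veh was 1.24 (1.21 to 1.29) at 0 h, 1.12 (1.08 to 1.16) at 1 h and 1.64 (1.56 to 1.72) at 4 h. The larger ratio at 4 h stood beside a ratio of LPS to 0 h of 0.595 (0.575 to 0.616) in Veh and of 0.784 (0.747 to 0.821) in DHA. Over all barcodes the 4 h ratio of DHA to Veh was 0.46 on the log2 scale, under the limit, and 0.61, past it, when these were scaled by non-mitochondrial UMIs. Unlike Cd36, Cpt1a, Angptl4 and Acadvl, Acadl was higher in Veh.LPS.0 than in Con, by 1.47-fold (1.43 to 1.51).

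Hadha (ENSMUSG00000025745; chr5:30119423-30154980) and Hadhb (ENSMUSG00000059447; chr5:30155253-30184593) encode the 2 subunits of the trifunctional protein and lie 272 bases apart. Hadha was at 105 CPM for Con, at 94.1, 97.9 and 67.7 CPM for Veh, and at 97.6, 97.3 and 74.6 CPM for DHA. Hadhb was at 50.6 CPM for Con, at 43.3, 43.5 and 27.9 CPM for Veh, and at 48.2, 39.8 and 27.1 CPM for DHA. Both were highest in Con and lowest in the 4 h libraries. The ratios of DHA to Veh were 1.04 (0.997 to 1.08), 0.994 (0.954 to 1.04) and 1.10 (1.04 to 1.17) for Hadha. For Hadhb they were 1.11 (1.05 to 1.18), 0.916 (0.859 to 0.975) and 0.973 (0.885 to 1.07). The ratio of 4 h of LPS to 0 h was 0.720 for Hadha and 0.644 (0.608 to 0.682) for Hadhb in Veh, and 0.765 and 0.563 (0.512 to 0.618) in DHA. Pearson's r of the log2 levels of the pair over the 7 libraries was 0.95, given as a description.

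**Figure D2:**
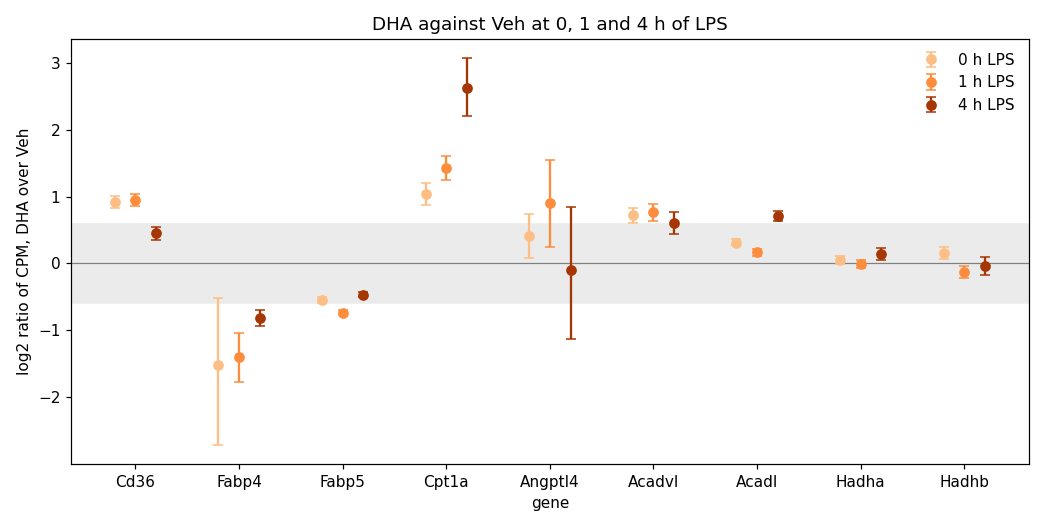
Log2 ratio of CPM in DHA over Veh for each gene at 0, 1 and 4 h of LPS, with exact binomial 95% intervals (counting error only); the grey band marks ratios within 1.5-fold. Cpt1a rises from 1.03 at 0 h to 2.63 at 4 h, Acadvl stays near 0.7, Fabp4 and Fabp5 lie below 0, and Hadha and Hadhb lie inside the band at each hour.

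After 4 h of LPS the level of the median gene itself was 0.43 lower on the log2 scale in Veh and 0.32 lower in DHA. With TMM scaling, which removes that shift, the medians were 0.00 and -0.02. Against this shift, Cpt1a at -2.81 and Angptl4 at -1.95 in Veh were far below the median gene, Acadl at -0.75 and Hadhb at -0.63 were near it, and Hadha at -0.47 and Acadvl at -0.23 were at or above it. With TMM, Acadl and Hadhb in Veh and Hadhb in DHA stayed under the limit, and Acadvl in Veh turned from -0.23 to 0.20. Fabp4, Fabp5, Cpt1a and Angptl4 passed it in Veh and in DHA under TMM as well. Cd36 passed it under TMM in Veh, at 1.07, but not in DHA, at 0.47.

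**Figure D3:**
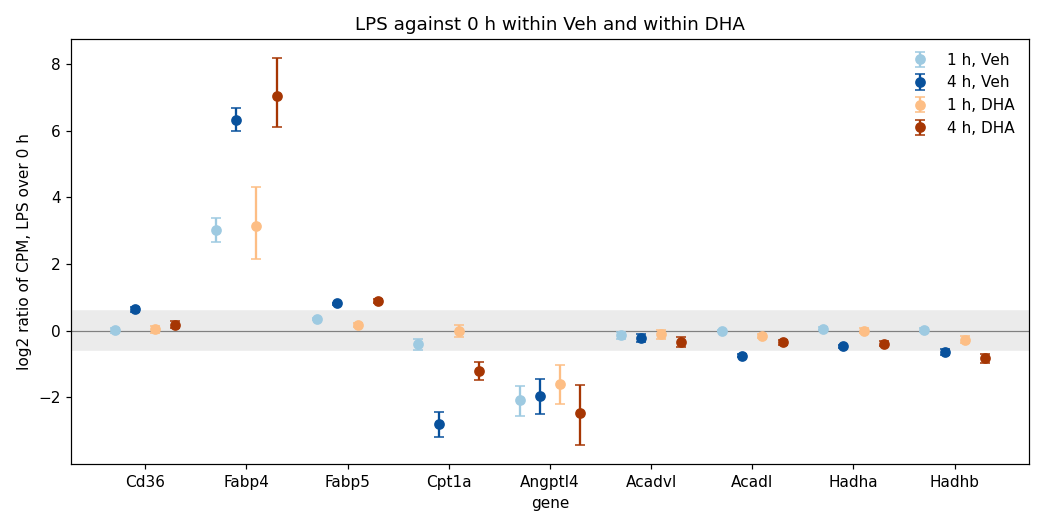
Log2 ratio of CPM after 1 or 4 h of LPS over 0 h, within Veh (blue) and within DHA (orange), with exact binomial 95% intervals (counting error only); the grey band marks ratios within 1.5-fold. Fabp4 reaches 6.32 and 7.03 at 4 h, and Cpt1a is -2.81 at 4 h in Veh and -1.22 in DHA. Angptl4 is -2.09 and -1.95 at 1 and 4 h in Veh, and -1.61 and -2.46 in DHA.

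The members differed in how their RNA was spread among cells. Each cell was thinned to 20000 UMIs, so that depth was equal, and the variance over the mean of the UMIs (the Fano factor) was taken, for which sampling alone gives about 1. Cpt1a, Acadvl, Acadl, Hadha and Angptl4 had values of 0.978 to 1.25 over all 7 libraries, and Hadhb of 0.996 to 1.22 except in Veh.LPS.1. There it was 1.81, with 1 cell holding 45 Hadhb UMIs, and 1.10 without that cell. Cd36 ranged from 3.09 to 4.87 over Con and the Veh libraries and from 5.66 to 7.61 over the DHA libraries. Fabp5 was at 2.06 in the Con cells, went from 10.6 to 16.0 between 0 and 4 h of LPS under Veh, and from 6.33 to 21.4 under DHA. In DHA.LPS.4 1 cell held 164 Fabp5 UMIs, and without it the value was 15.7, beside 15.6 in Veh.LPS.4 without its top cell. Fabp4 reached 23.8 in Veh.LPS.4 and 36.7 in DHA.LPS.4. The latter rested on 1 cell with 111 of the 433 Fabp4 UMIs: without the top cell of each, the values were 18.8 and 11.4, in the opposite order. Cd36 without its top cell had 2.93 to 3.91 in Con and Veh and 4.86 to 5.14 in DHA. Its mean was also higher in DHA, at 0.927 to 1.15 thinned UMIs per cell against 0.502 to 0.828 in Con and Veh. The part of that level in the Fano factors was not tested. Where the Fano factor is well above 1, UMIs come in clusters and the counting intervals of Cd36, Fabp4 and Fabp5 are too narrow.

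**Figure D4:**
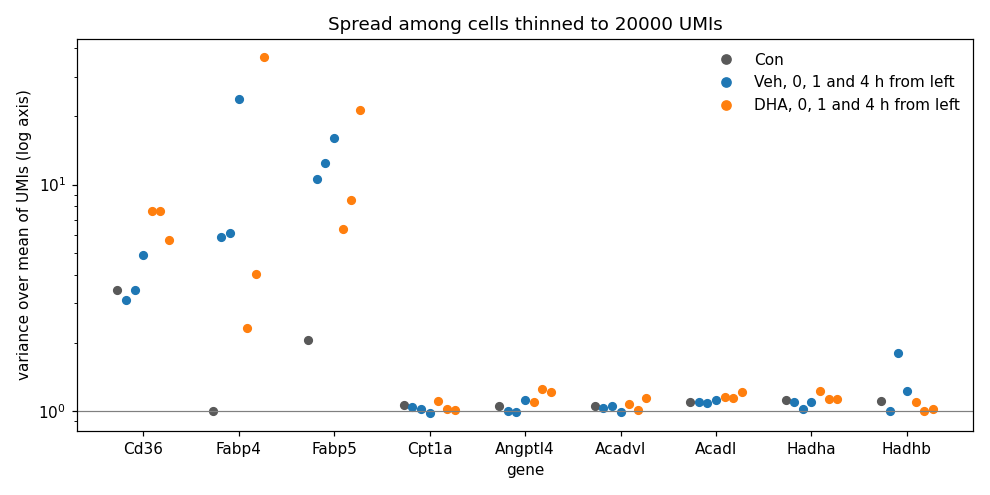
Variance over mean of UMIs per cell (log axis) for each gene in the 7 libraries, after thinning each cell to 20000 UMIs; grey is Con, blue Veh and orange DHA, and the line at 1 is the value sampling alone would give. Cd36, Fabp5 and, outside Con, Fabp4 stand above the oxidation genes, which lie near 1, and Fabp4 is highest at 4 h.

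Fabp4 RNA after 4 h of LPS came from a minority of cells. At 20000 UMIs, 20.1% of Veh.LPS.4 cells (17.7 to 22.8, exact binomial 95% interval, 993 cells) and 16.8% of DHA.LPS.4 cells (14.1 to 19.8, 692 cells) had a Fabp4 UMI, and 33.2% and 20.2% before thinning. The 10% of cells with most Fabp4 held 91.2% and 89.4% of its UMIs, with up to 88 and 111 UMIs in a single cell. Those cells with a Fabp4 UMI averaged 5.88 UMIs in Veh and 3.73 in DHA. At 1 h, 4.52% of Veh cells and 1.76% of DHA cells had a UMI, and in Con 2 of 2908. At 0 h the shares were 0.524% in Veh (0.279 to 0.894, 13 cells) and 0.430% in DHA (0.0887 to 1.25, 3 cells), with intervals that overlapped.

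Cd36 was found in 37.1% of Con cells, in 27.7%, 27.6% and 35.3% of Veh cells and in 36.4%, 38.1% and 38.2% of DHA cells, thinned to 20000 UMIs. Before thinning the shares were 51.9%, then 39.5%, 35.2% and 50.2%, and 54.2%, 51.6% and 44.9%. At 4 h the exact binomial intervals of the thinned shares, for counting error within 1 library each, were 32.4 to 38.4 in Veh and 34.5 to 41.9 in DHA. Cells with a Cd36 UMI held 1.81, 1.91 and 2.34 UMIs on average in Veh, and 2.55, 2.64 and 3.02 in DHA. The 10% of cells with most Cd36 held 56.8% to 66.6% of its UMIs in the 7 libraries. For Fabp5 the share was 34.1% in Con and 44.1% to 52.6% elsewhere, and for Hadha 23.9% to 28.6%.

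Cpt1a was found in 16.1% of Con cells, in 14.0%, 11.3% and 2.32% of Veh cells and in 25.8%, 26.4% and 12.7% of DHA cells after thinning (29.2%, then 25.1%, 15.8% and 5.94%, and 51.4%, 44.0% and 18.5% before). Cells with a Cpt1a UMI seldom held more than 1, with means of 1.07 to 1.25 where at least 50 UMIs were counted. At so few UMIs per cell, the share of cells with a UMI restates the level.

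Plin2, the coat protein of lipid droplets, was 6.16, 7.56 and 8.65 times higher in DHA than in Veh at 0, 1 and 4 h. Cells of each of the 6 reduced-serum libraries were ranked by their thinned Plin2 UMIs and cut into 3 equal groups, and the highest group was set against the lowest. Ties were broken by the order of the barcodes. In Veh.LPS.0 and Veh.LPS.1 the lowest group held only cells with 0 Plin2 UMIs, so which such cells it held can depend on that order. Cd36 was higher in the Plin2-high group by 1.94 (1.68 to 2.23), 1.46 (1.30 to 1.65) and 1.96 (1.64 to 2.35) times in Veh at 0, 1 and 4 h. In DHA it was higher by 3.81 (3.08 to 4.76), 3.76 and 5.39 (4.32 to 6.78) times. The groups lay further apart in DHA, with a mean of 1.12 and 18.5 Plin2 UMIs at 0 h, against 0 and 2.89 in Veh. Pearson's r of Cd36 and Plin2 over cells was 0.11 to 0.14 in Veh and 0.25 to 0.41 in DHA, and 0.13 to 0.15 and 0.29 to 0.46 without the 2 cells with most Cd36. Cells are not replicates, and these values describe single libraries.

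The enzymes of oxidation differed less between the Plin2 groups. Cpt1a had ratios of 1.31 (0.927 to 1.85), 1.28 (0.920 to 1.77) and 1.33 (0.787 to 2.28) in DHA, and 0.939 and 0.801 in Veh at 0 and 1 h, none with an interval away from 1. Acadl had 1.14 (1.03 to 1.27) and 1.28 (1.15 to 1.42) in DHA at 0 and 1 h and 1.00 at 4 h, while in Veh it had 1.06, 0.931 (0.881 to 0.985) and 0.981. Hadhb was lower in the Plin2-high group of DHA.LPS.1, at 0.777 (0.633 to 0.954), and had 0.847 to 1.04 in the other 5 libraries, each with an interval that held 1. Hadha had 0.922 to 1.04 over the 6 libraries, each with an interval that held 1. Fabp4 was higher in the Plin2-high group at 4 h, by 1.87 (1.63 to 2.16) in Veh and 2.03 (1.61 to 2.56) in DHA. The DHA value, on 233 and 115 UMIs, was not recomputed without the 1 cell that held 111 of the library's 433 Fabp4 UMIs. It can rest on that cell. Fabp5 had no one direction. Its ratios were 0.783 (0.703 to 0.873), 0.842 (0.766 to 0.926) and 1.11 (1.03 to 1.19) in DHA at 0, 1 and 4 h, and 1.06 (1.01 to 1.11), 0.993 (0.958 to 1.03) and 0.922 (0.873 to 0.972) in Veh. The 4 h value in DHA, on 1455 and 1316 UMIs, was not recomputed without the 1 cell that held 164 Fabp5 UMIs. The summed UMIs of 8 proliferation genes moved with the groups, from 33.0 per cell in the Plin2-low to 15.3 in the Plin2-high group of DHA.LPS.0 and from 35.2 to 28.9 in Veh.LPS.0. The median mitochondrial share was 7.86% and 6.65% in those DHA groups. The part of either in these ratios was not tested.

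**Figure D5:**
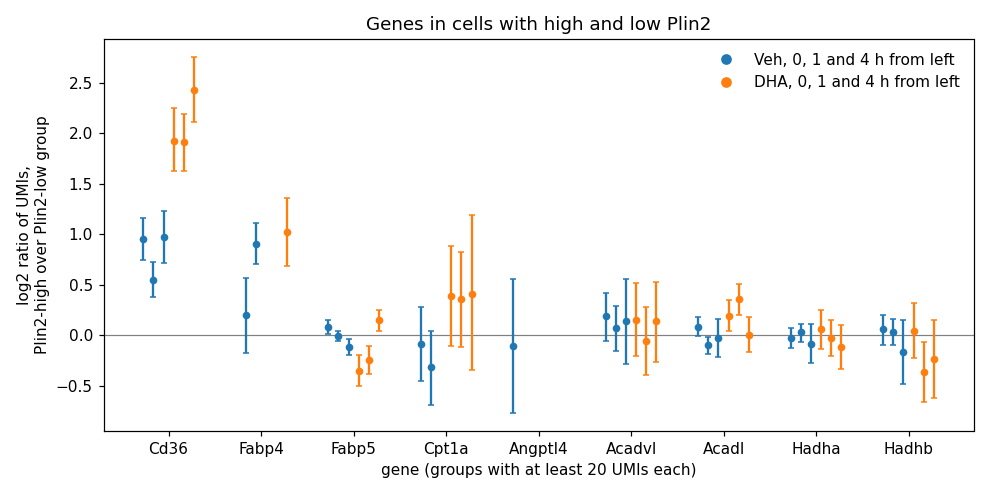
Log2 ratio of each gene's thinned UMIs in the Plin2-high over the Plin2-low group of cells, within each reduced-serum library, with exact binomial 95% intervals (counting error only); blue is Veh and orange DHA, at 0, 1 and 4 h from left, and points need at least 20 UMIs in each group. Cd36 lies above 0 in all 6 libraries and higher in the 3 DHA libraries, while Hadha stays within 0.12 of 0.

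Fabp4 and Fabp5 moved together over libraries (r 0.90 of log2 levels, 7 libraries) but weakly over cells. Their r over cells was 0.21 in Veh.LPS.4 and 0.65 in DHA.LPS.4, and 0.20 and 0.19 without the 2 cells with most Fabp4. The value of 0.65 rested on those cells. Cells with a Fabp4 UMI averaged 12.0 and 10.8 Fabp5 UMIs at 4 h, against 6.99 and 4.70 in the others. Cd36 and Fabp5 had r of -0.08 to 0.01 over cells in Veh and DHA, with or without the 2 cells with most Cd36.

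Further genes of the pathway were taken from 8 lists of 64 genes, of which 51 had a mean of at least 1 CPM. In DHA against Veh, 4 were higher and 1 lower at 0 h (2.03% and 1.99% of all genes), 4 higher and 2 lower at 1 h (2.59% and 2.90%), and 6 higher and 4 lower at 4 h (5.65% and 3.53%). Their median log2 ratios were 0.08, 0.03 and 0.22, beside -0.05, -0.05 and 0.09 over all genes. Those of uptake and transport into mitochondria included Fabp3, the heart fatty acid binding protein, with 2.55, 3.12 and 3.40 CPM in Veh and 5.77, 7.92 and 9.12 CPM in DHA. Its DHA ratios were 2.26 (1.87 to 2.73), 2.54 (2.14 to 3.01) and 2.68 (2.20 to 3.28), opposite in direction to Fabp4 and Fabp5. Slc25a20, the carrier that brings acylcarnitine through the inner membrane after Cpt1a has acted, had ratios of 1.66 (1.39 to 1.98), 1.76 (1.46 to 2.11) and 1.80 (1.43 to 2.26). Cpt2, which follows it, had 1.05, 0.950 and 1.29. Lpl, lipoprotein lipase, had 1.09 and 0.983 at 0 and 1 h and 0.479 (0.471 to 0.486) at 4 h, with 1633 CPM in Veh and 781 CPM in DHA.

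In mitochondrial beta oxidation, 12 of 13 list genes passed the filter, and Acaa2, the thiolase of the last step, was past the limit at each hour, at 1.58 (1.49 to 1.68), 1.64 (1.53 to 1.75) and 1.69 (1.52 to 1.88). Hadh also passed it at 4 h, with 1.53. Above 1 were 10, 9 and 11 of the 12 genes, beside 4174, 4098 and 6736 of all 10410 genes. The list had median log2 ratios of 0.24, 0.15 and 0.34, beside -0.05, -0.05 and 0.09 over all genes. Acadm, the medium-chain dehydrogenase, had 0.955, 0.971 and 1.08. Of the peroxisomal list no gene was higher at any hour, and Abcd2, a peroxisomal fatty acid transporter, was 0.613 at 4 h, on so few UMIs that its interval ran from 0.112 to 2.23. Of the 5 activating enzymes, Acss2, which makes acetyl-CoA from acetate, had 0.512 (0.421 to 0.619), 0.440 (0.336 to 0.569) and 0.280 (0.140 to 0.508), and Acsl3 was lower by size at 4 h, at 0.654 (0.600 to 0.712), after 0.731 and 0.672. Acsl1 went the other way without passing the limit, at 1.06, 1.22 (1.16 to 1.28) and 1.49 (1.37 to 1.62). Above 1 were 1, 1 and 2 of these 5 genes. Pdp2, the phosphatase that opposes the PDK kinases, had 0.671, 0.654 (0.585 to 0.730) and 0.675.

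Angptl6, a secreted angiopoietin-like protein, had 9.60, 9.75 and 5.87 CPM in Veh and 24.2, 23.0 and 6.44 CPM in DHA, so that its ratio was 2.53 (2.30 to 2.77), 2.36 (2.14 to 2.60) and 1.10 (0.896 to 1.34). Angptl2, a relative, had 1.17, 1.42 and 2.27 (1.75 to 2.95). Among the PPAR genes, Ppard was detected at 9.95 to 19.0 CPM, with DHA ratios of 0.960, 0.979 and 1.24, Pparg had 2 UMIs in all kept cells, and Ppara and its partner Ppargc1a had 0. Rxra, the retinoid X receptor that pairs with PPARs, had 1.18, 1.11 and 1.71 (1.31 to 2.21). Vldlr, Fabp2 and Ehhadh also had 0 UMIs, and Decr1, a widely expressed mitochondrial reductase, had 1, so that loss of reads in the assignment to genes cannot be told apart from absent RNA for these genes.

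After 4 h of LPS in Veh, 9 of 12 genes of mitochondrial beta oxidation and 10 of 11 peroxisomal genes were lower by size, beside 42.2% of all genes, and the median log2 ratio of the former list was -1.05. In DHA 9 of 12 and 10 of 11 genes were lower, beside 36.3% of all genes, with medians of -1.01 and -0.97. Over the 51 list genes 32 were lower in Veh and 32 in DHA, with medians of -0.77 and -0.79 beside -0.43 and -0.32 over all genes. Acadm was 0.296 in Veh (0.277 to 0.316), Cpt2 0.254 (0.213 to 0.301) and Rxra 0.255 (0.214 to 0.303), while Slc25a20 was 0.937 (0.782 to 1.12). At 1 h, 1 of 51 list genes was higher and 2 lower in Veh (5.24% and 7.89% of all genes), and 1 and 1 in DHA (5.85% and 8.21%). In Veh.LPS.0 against Con, 10 of 51 list genes were higher and 0 lower by size (13.5% and 7.29% of all genes).

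For the 6 detected members whose highest level was over 2 times their lowest, the genes nearest in pattern were found by Pearson's r of log2(CPM + 0.1) over the 7 libraries, among 7300 genes with a mean of at least 10 CPM. Those nearest Cpt1a were Psap, Scarb2 and Ezr, with r of 0.986, 0.984 and 0.983. Psap, the saposin precursor of the lysosome, had 211, 197 and 126 CPM in Veh and 296, 276 and 220 CPM in DHA. Nearest to Cd36 were Esd, Tmem120a and Cyba (0.948, 0.947 and 0.939), and nearest to Fabp4 were Dcbld2, Pea15a and Nfkbib (0.998, 0.994 and 0.990). Fabp5 was nearest to Cybb, the catalytic subunit of the phagocyte NADPH oxidase, then to Itgb2 and Tapbp (0.975, 0.973 and 0.970). Angptl4 was nearest to Rcn1, Gtf3c4 and Tmem11 (0.982, 0.981 and 0.980), and Acadl to Mea1, Paip2 and Chmp3 (0.981, 0.979 and 0.977). Each r was the highest of 7300 over 7 points, and describes likeness in these libraries alone.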

How the data were processed

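For each of 7 libraries (10x Chromium 3' chemistry, v3) the authors deposited UMI counts per gene and barcode, raw and without a filter on mitochondrial share. The submitters' processing notes and the file headers name Cell Ranger 3.1.0, and the notes name the mm10 build, whereas the paper's methods give another Cell Ranger version. The study's limits on cells were applied, and doublets were not removed. Counts were summed per gene and library and divided by library totals. No condition had a replicate, so single conditions were compared with no test. A fit added after seeing the data tested DHA against Veh over the 6 reduced-serum libraries, with hour as a term (edgeR, quasi-likelihood, TMM). On simulated counts for 10410 genes with 200 changed 2-fold, it recovered 198 and also called 36 unchanged genes, a share of false calls above the threshold of 0.05. The simulated counts held no effect of hour and the same DHA change at each hour, unlike the real data. They therefore do not show how many changed genes the fit would find here. Ratios carry exact binomial and levels exact Poisson intervals at 95%, and the floor of a count of 0 was set at 3 counts. UMIs were thinned with seed 1 by multivariate hypergeometric draws. Code was tested on simulated data.

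The members and lists were chosen with earlier results of these data known. Named genes were all 10 members, list genes past 1.5-fold in a DHA comparison (at most 5 per direction) and the 3 genes nearest each varying member; other list genes were chosen after their values were seen. Alternatives were TMM factors (edgeR 4.0.16), other totals, equal weight per cell, all barcodes, a 10% mitochondrial limit, 10000 UMIs, low proliferation and a 2-fold limit. Coordinates are RefSeq's on GRCm38. Gene tables by the authors were not used. Python 3.11.15, numpy 2.4.6 and scipy 1.17.1 were used. Where reads of Fabp5 come from a near copy, these counts cannot show it.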

Additional observations from a re-analysis of the deposited data

Results flagged for a closer look

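Hadhb was flagged because its ratio of DHA to Veh lay above 1 at 0 h and below 1 at 1 h, each with a counting interval on its own side of 1. The ratio was 1.11 at 0 h (48.2 and 43.3 CPM) and 0.916 at 1 h (39.8 and 43.5 CPM). On counting error alone, the ratio at 1 h was 0.822 times that at 0 h (0.755 to 0.894). The difference between the hours was not tested against replicate libraries, since each condition had 1. At 4 h the ratio was 0.973. No group had enough libraries to look for a library far from the others.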

How the results depend on the processing

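Of 72 member ratios, 33 passed 1.5-fold, and none of these 33 changed sign under the alternatives run: TMM, a total without the top 20 and mitochondrial genes, equal weight per cell, all barcodes, a 10% mitochondrial limit, a minimum of 10000 UMIs, cells of low proliferation, and all barcodes scaled by non-mitochondrial UMIs (the last chosen after seeing the data). Some of the 33 did fall within 1.5-fold under at least 1 of these alternatives. In DHA against Veh these were Acadvl at each hour, Angptl4 at 1 h, and Fabp4 and Acadl at 4 h. After 4 h of LPS they were Cd36, Acadl and Hadhb in Veh and Hadhb in DHA. Other ratios came past 1.5-fold, such as Fabp5 in DHA against Veh at 0 and 4 h over all barcodes. With a 2-fold limit the number of members past it was 2 in place of 4 for DHA at 0 h, 2 in place of 6 at 1 h and 1 in place of 4 at 4 h. For LPS at 4 h it was 3 in place of 7 in Veh and 3 in place of 5 in DHA. The cells of low proliferation were those at or below the median of Veh.LPS.0 in UMIs of 8 genes, whose summed level was 1798 CPM for Veh.LPS.0, 1346 CPM for DHA.LPS.0 and 555 CPM for Veh.LPS.4. Under the 8 alternatives other than the 2-fold limit, the DHA ratio of Cpt1a ranged from 1.01 to 1.38 at 0 h, from 1.32 to 1.87 at 1 h and from 2.49 to 2.87 at 4 h on the log2 scale. Fabp4 in DHA against Veh at 0 h, on 9 and 73 UMIs, ranged from -2.27 to -0.82. Depth limits Angptl4 and Fabp4 most, and low counts in DHA libraries widen each interval. The fit of DHA against Veh with hour as a term, which sets the libraries side by side hour by hour, was chosen after seeing the data and called 3 members. It called 4 with library totals in place of TMM, 0 with no hour term (2 at an unadjusted p under 0.05), 0 without the 0 h libraries, 0 without the 1 h libraries and 6 without the 4 h libraries. In all 6 versions of this fit, over all 10410 genes, the number called ran from 0 with no hour term to 1251 higher and 1247 lower without the 4 h libraries. No replicate could be left out within a condition.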
